A study of Mus musculus with 35 samples.

Results

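Circadian clock and clock output genes were followed in SCA7 and WT mice, in medulla and in cervical spinal cord. The members were 10 genes of the 35976 gene symbols counted in each library, chosen by symbol: the period genes *Per1*, *Per2* and *Per3*, the PAR bZIP output factors *Dbp*, *Tef* and *Hlf*, the REV-ERB receptors *Nr1d1* and *Nr1d2*, *Ciart* and *Clock*. All 10 had a count row in all 35 libraries. SCA7 mice are SCA7 266Q/5Q knock-in mice, which carry 266 CAG repeats in 1 ataxin-7 allele, and controls were their WT littermates. Both genotypes were housed on a 12-hour light/dark cycle, males and females were used, and the hour of tissue collection is not given in the sources used here. At 9 weeks (preterminal) both tissues were sequenced from 5 WT and 5 SCA7 mice, at 5 weeks (presymptomatic) from 2 WT and 2 SCA7 mice, and at P8 (neonates) the medulla was sequenced from 2 mice of each genotype and the cervical spinal cord from 1 WT and 2 SCA7 mice. The comparisons asked whether the expression of these genes differed by genotype, tissue or age.

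The molecular clock is a feedback loop of transcription. CLOCK and its partner BMAL1 (*Arntl*) bind E-boxes and drive the period and cryptochrome genes, whose proteins return to repress that pair, while the REV-ERB receptors repress *Arntl* through RORE sites. DBP, TEF and HLF bind D-boxes and carry the rhythm to output genes. Their transcripts peak at another time of day than *Arntl* in most tissues, and mice collected at a single hour would show the 2 arms in opposite phases. Whether all mice were collected at a single hour is not given in the sources used here. An effect of the hour thus cannot be told apart from one of genotype or age.

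Total counts fell into separate depth classes. In 15 libraries, called deep here, totals lay between 28969003 and 99353286, and in the other 20, called shallow here, between 95917 and 396417. Of the 5 libraries of each 9-week group 2 were deep. At 5 weeks the medulla was deep in WT and shallow in SCA7 mice without exception, and the effects of depth and of genotype cannot be told apart in that comparison. In a shallow library 3 counts, the limit that a count of 0 allows, were worth 7.57 to 31.3 CPM, the count scaled to library size, before normalization, and this limit covers counting error only. SCA7 replicate 2 of the 9-week medulla stood apart from all other libraries, with a normalization factor of 0.38 and 25.9% of its counts in the mitochondrial gene *COX1*. The changes of the 9-week medulla are therefore given with and without it. *COX1* held 4.63% to 14.6% of the counts of the other shallow libraries. It held 1.04% to 1.76% in deep libraries, save WT replicate 1 of the 9-week cervical spinal cord (4.41%). The depth classes thus differed in composition as well as in depth. WT replicate 4 of that tissue had the 14.6%, with a factor of 0.73. Cervical changes are given with all libraries unless said otherwise. Levels below are CPM normalized by TMM (trimmed mean of M values) over all libraries. Changes are log2 fold changes of edgeR's quasi-likelihood test with standard errors (SE), and a gene is said to have risen or fallen where its Benjamini-Hochberg adjusted p over all genes tested was under 0.05.

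RefSeq promoter windows of 250 bases before to 50 bases after an annotated start (GRCm38.p6) were read for 9 of the 10 members, and several members had more than 1 window. The windows were searched on both strands for the E-box CACGTG, for the D-box written as TTATGTAA, TTACGTAA, TTATGCAA or TTACATAA (the first and the last are the same site read on opposite strands), and for the RORE core written as TAGGTCA or TGGGTCA. Of 32851 windows of all genes, 7.15% held an E-box, 1.78% a D-box and 6.45% a RORE core. The windows below are those of the members with a motif, and that of *Dbp*, the member with the largest change at 9 weeks. Capitals mark the motifs, and each sequence is written 5′ to 3′ on the strand of the gene.
Ciart (chr3:95882179-95882478, minus strand): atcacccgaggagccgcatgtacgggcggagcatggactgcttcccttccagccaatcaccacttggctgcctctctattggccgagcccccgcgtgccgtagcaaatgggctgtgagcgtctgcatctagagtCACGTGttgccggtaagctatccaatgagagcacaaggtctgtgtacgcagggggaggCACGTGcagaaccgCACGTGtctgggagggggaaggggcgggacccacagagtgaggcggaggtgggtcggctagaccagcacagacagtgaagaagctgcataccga
Per3 (chr4:151044616-151044915, minus strand): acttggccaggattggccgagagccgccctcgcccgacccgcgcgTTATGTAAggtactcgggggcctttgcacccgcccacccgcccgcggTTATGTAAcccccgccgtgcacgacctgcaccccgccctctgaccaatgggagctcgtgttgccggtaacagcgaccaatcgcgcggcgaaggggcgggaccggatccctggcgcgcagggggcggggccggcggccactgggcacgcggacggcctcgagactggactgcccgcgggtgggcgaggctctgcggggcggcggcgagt
Per1 (chr11:69098699-69098998, plus strand): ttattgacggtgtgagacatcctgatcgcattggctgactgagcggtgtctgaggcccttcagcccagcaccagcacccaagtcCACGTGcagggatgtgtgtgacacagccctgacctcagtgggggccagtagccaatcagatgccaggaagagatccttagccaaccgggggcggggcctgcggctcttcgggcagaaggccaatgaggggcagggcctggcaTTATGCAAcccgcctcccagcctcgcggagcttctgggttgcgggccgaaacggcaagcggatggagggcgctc
Tef (chr15:81802423-81802722, plus strand): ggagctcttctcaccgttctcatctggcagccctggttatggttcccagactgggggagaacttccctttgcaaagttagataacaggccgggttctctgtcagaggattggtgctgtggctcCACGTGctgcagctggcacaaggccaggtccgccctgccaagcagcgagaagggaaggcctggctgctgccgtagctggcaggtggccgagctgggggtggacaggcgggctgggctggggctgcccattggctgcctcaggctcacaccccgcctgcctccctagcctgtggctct
Tef second start (chr15:81811164-81811463, plus strand): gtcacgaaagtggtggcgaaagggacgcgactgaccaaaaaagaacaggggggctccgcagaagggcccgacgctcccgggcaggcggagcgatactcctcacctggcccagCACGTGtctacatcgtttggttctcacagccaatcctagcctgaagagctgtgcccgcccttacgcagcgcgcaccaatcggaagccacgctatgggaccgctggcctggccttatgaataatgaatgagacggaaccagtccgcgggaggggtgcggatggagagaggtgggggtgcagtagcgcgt
Dbp (chr7:45704997-45705296, plus strand): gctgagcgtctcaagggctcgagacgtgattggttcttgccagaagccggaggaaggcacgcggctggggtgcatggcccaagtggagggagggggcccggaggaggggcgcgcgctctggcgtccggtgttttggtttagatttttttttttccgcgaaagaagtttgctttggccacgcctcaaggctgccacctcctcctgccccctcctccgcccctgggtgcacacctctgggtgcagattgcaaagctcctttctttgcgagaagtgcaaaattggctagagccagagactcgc
The *Ciart* window held 3 E-boxes, with first bases at -116, -58 and -44 from the start, and the *Per3* window 2 D-boxes at -205 and -158. *Per1* held an E-box at -166 and a D-box at -24, and each of the 2 *Tef* windows held 1 E-box, at -127 and -138. No motif letters were found in the windows of *Dbp*, *Nr1d1*, *Nr1d2*, *Hlf* and *Clock* or in the second window of *Per1*. A match is a description of the letters and not a binding site.

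*Dbp*, a PAR bZIP activator whose transcript is among the most strongly rhythmic in many tissues, was the only member that passed the test at 9 weeks, and it fell in both tissues of SCA7 mice. In the medulla the 5 WT libraries held 50.5, 82.3, 65.3, 65.8 and 84.4 CPM, and the 5 SCA7 libraries held 0, 40.3, 14.6, 30.5 and 28.9 CPM. Every WT library lay above every SCA7 library. The change was -1.45 (SE 0.34, edgeR adjusted p = 0.0189), and without SCA7 replicate 2 it was -1.48 (edgeR adjusted p = 3.32e-05). The WT libraries of the cervical spinal cord held 128.2, 49.8, 75.1, 111.9 and 87.7 CPM, and the SCA7 libraries 30.7, 21.6, 31.3, 29.4 and 28.6 CPM. Again the groups did not overlap, and the change was -1.75 (SE 0.27, edgeR adjusted p = 0.00189). Of all genes tested 6.97% passed in the medulla and 5.06% passed in the other tissue, beside 1 of 10 members in each. The groups did not overlap for 2.04% and 2.16% of genes. These shares depend on the setting: 1335 and 974 genes passed by edgeR, 71 and 195 by DESeq2. With edgeR's bias-adjusted deviance 21 and 280 passed. Counts of gene lists below rest on the edgeR test without that adjustment. The shallow libraries held 0 to 13 *Dbp* counts at 9 weeks, and the SCA7 library at 0 held 106531 counts in all, which allows up to 28.2 CPM before normalization. The deep libraries carried far more *Dbp* counts, with 3138 and 3051 in WT medulla against 1162 and 1002 in SCA7 medulla, and 3141 and 3186 in WT cervical spinal cord against 984 and 1118 in SCA7 cervical spinal cord.

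**Figure D1:**
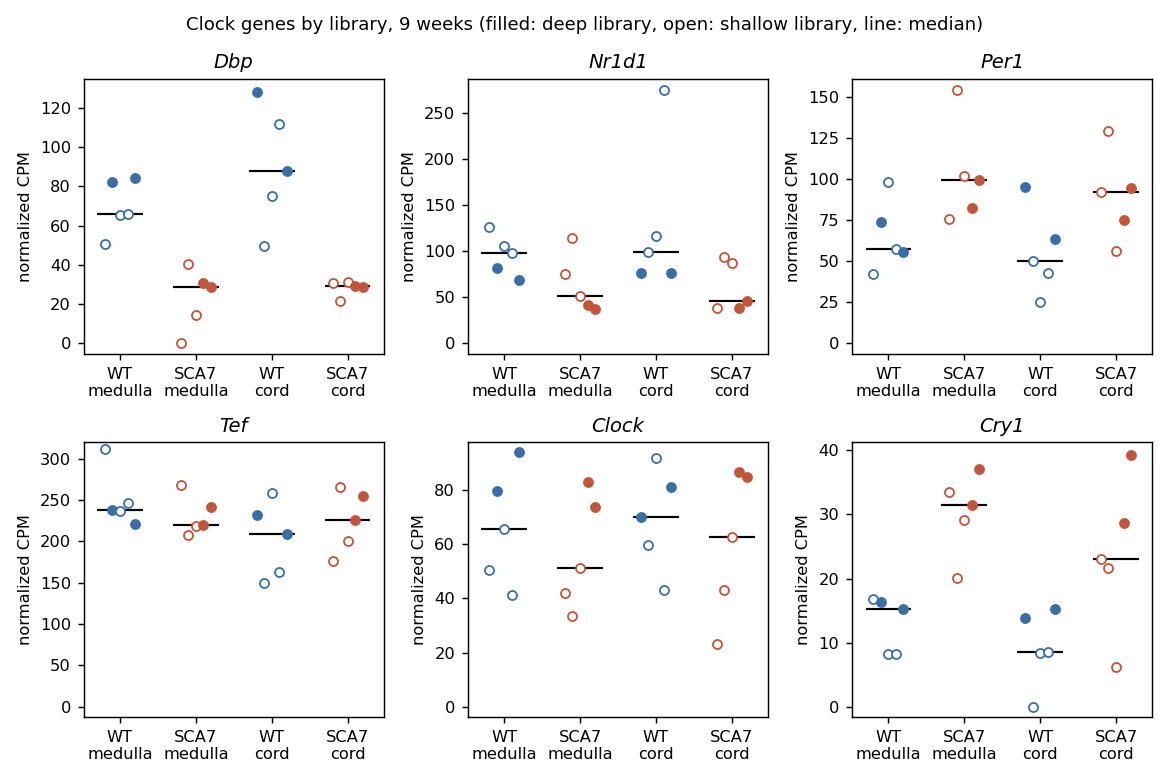
Normalized CPM of 6 clock genes in each 9-week library of the medulla and cervical spinal cord (cord), WT in blue and SCA7 in red, with filled points for deep and open points for shallow libraries and a line at the median. *Dbp* in the cervical spinal cord lay at 49.8 CPM or more in WT and at 31.3 CPM or less in SCA7 mice, *Cry1* in the medulla lay at 16.8 CPM or less in WT and at 20.1 CPM or more in SCA7 mice, and *Tef* overlapped in both tissues.

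Leaving out any 1 of the 4 deep medulla libraries ended the call for *Dbp*, for WT replicates 2 and 5 and SCA7 replicates 4 and 5 in turn (edgeR adjusted p = 0.0945, 0.0884, 0.0521 and 0.0863), as did edgeR's bias-adjusted deviance (edgeR adjusted p = 0.325), while the change stayed between -1.56 and -1.40 in these fits. Among deep libraries alone the medulla change was -1.52 (edgeR adjusted p = 0.000127) and the cervical change -1.86 (edgeR adjusted p = 0.135). In the former fit 2981 of 19094 genes passed. In the latter fit 0 of 19218 genes passed, with 2978 at an unadjusted p under 0.05. In the shallow cervical libraries alone it was -1.56 (edgeR adjusted p = 0.242). With the replicate number as a block the medulla change was -1.54 and the cervical change -1.70.

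*Tef* and *Hlf*, which share the DNA-binding domain type and the D-box of DBP, did not pass in either tissue. *Tef* held 311.4, 238.4, 236.7, 246.7 and 221.4 CPM in WT and 268.2, 208.0, 218.5, 219.7 and 241.1 CPM in SCA7 medulla, a difference of -0.09 (SE 0.19, edgeR adjusted p = 0.872). The cervical difference of *Tef* was 0.13 (SE 0.21, edgeR adjusted p = 0.829). The groups overlapped in both tissues. *Hlf* ranged from 82.2 to 143.1 CPM in WT and from 80.5 to 182.1 CPM in SCA7 medulla, a difference of 0.09 (SE 0.26, edgeR adjusted p = 0.915), and its cervical difference was -0.18 (SE 0.33, edgeR adjusted p = 0.866). The sign of the *Hlf* difference in the medulla turned among deep libraries alone (-0.13). Without SCA7 replicate 2 the medulla differences of *Tef* and *Hlf* were -0.08 and 0.10.

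Counts of *Dbp* per 100 counts of *Tef* put both genes on the scale of 1 library, where the library size cancels. At 9 weeks this ratio was 16.2, 34.5, 27.6, 26.7 and 38.1 in WT medulla and 0, 19.4, 6.67, 13.9 and 11.97 in SCA7 medulla. For the cervical spinal cord it was 55.2, 33.3, 29.0, 68.4 and 42.1 in WT and 17.4, 8.11, 15.6, 13.0 and 11.3 in SCA7 mice. The genotypes did not overlap in the cervical spinal cord, and in the medulla 1 shallow WT library (16.2) lay below 1 shallow SCA7 library (19.4), the library that stood apart. At P8 the 3 deep medulla libraries held 20.03 and 21.0 in WT and 18.9 in the SCA7 mouse, and the deep WT cervical library held 19.5. The ratio of the deep 9-week SCA7 libraries thus lay below that of deep P8 libraries of either genotype, and that of deep 9-week WT libraries above it. No test was made of this ratio.

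**Figure D2:**
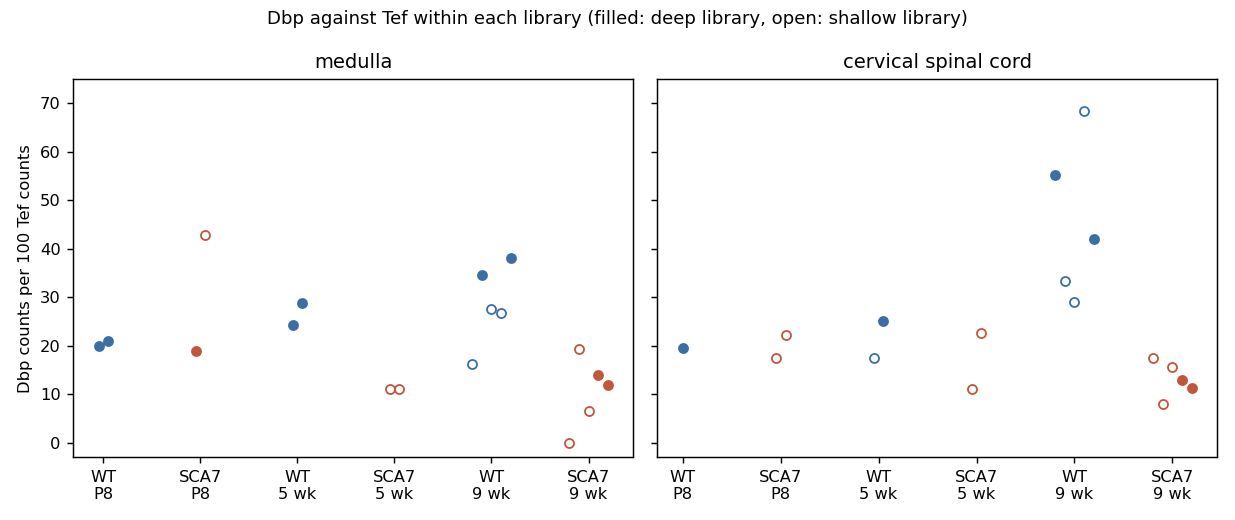
Counts of *Dbp* per 100 counts of *Tef* in each library, by genotype and age in the medulla (left) and cervical spinal cord (right), with filled points for deep and open points for shallow libraries. At 9 weeks the cervical WT libraries lay between 29.0 and 68.4 and the SCA7 libraries between 8.11 and 17.4.

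*Dbp* lies on chromosome 7 (45705100-45710203, plus strand, GRCm38.p6) and overlaps *Sphk2*, a sphingosine kinase gene on the opposite strand, by 741 bases. Whether the counting used strand is not given in the sources used here, so that reads in the overlap cannot be told apart. *Sphk2* differed by -0.15 (SE 0.46, edgeR adjusted p = 0.913) in the medulla, or -0.12 without SCA7 replicate 2, and by -0.40 (SE 0.32, edgeR adjusted p = 0.593) in the cervical spinal cord.

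Of the REV-ERB receptors, which repress *Arntl* and other RORE genes, *Nr1d1* was lower in SCA7 mice without passing the test in either tissue, and *Nr1d2* differed little. *Nr1d1* held 126.3, 81.5, 106.1, 98.7 and 68.9 CPM in WT medulla and 75.4, 114.1, 51.0, 41.6 and 37.7 CPM in SCA7 medulla. The highest SCA7 value was that of the library that stood apart. The difference was -0.66 (SE 0.36, edgeR adjusted p = 0.339), and without that library it was -0.96 and passed (edgeR adjusted p = 0.00197). It also passed among deep libraries alone (-0.95, edgeR adjusted p = 0.00188) and with the depth class as a term (-0.84, edgeR adjusted p = 5.25e-05). In those fits 2981 of 19094 and 2414 of 19157 genes passed. In the cervical spinal cord *Nr1d1* held 76.2, 99.6, 116.8, 275.3 and 76.8 CPM in WT and 38.4, 93.4, 87.7, 39.0 and 46.4 CPM in SCA7 mice, a difference of -1.13 (SE 0.43, edgeR adjusted p = 0.175). Without WT replicate 4, which held 275.3 CPM, the difference was -0.65. With all libraries the difference passed with the replicate block (-1.12, edgeR adjusted p = 0.0086) and with the depth class as a term (-0.96, edgeR adjusted p = 0.0283). In those fits 1117 and 893 of 19263 genes passed. The labels do not tie replicate numbers of the genotypes to a shared litter or day, so that the block may not pair the mice. *Nr1d2* differed by -0.32 (SE 0.19, edgeR adjusted p = 0.408) in the medulla, or -0.27 without SCA7 replicate 2, and by -0.01 (SE 0.28, edgeR adjusted p = 0.997) in the cervical spinal cord. *Nr1d1* (chromosome 11, 98767932-98775377, minus strand) overlaps *Thra*, the thyroid hormone receptor alpha gene on the opposite strand, by 1075 bases, and *Thra* differed by 0.41 (SE 0.21, edgeR adjusted p = 0.303) in the medulla, or 0.27 without that library, and by 0.27 (SE 0.25, edgeR adjusted p = 0.662) in the cervical spinal cord.

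The period genes encode the repressors of CLOCK and BMAL1, and none of the 3 passed in either tissue. *Per1* held 42.1, 73.9, 98.0, 57.6 and 55.5 CPM in WT medulla and 75.4, 154.3, 102.0, 82.3 and 99.1 CPM in SCA7 medulla. The difference was 0.67 (SE 0.27, edgeR adjusted p = 0.174), and without SCA7 replicate 2, at 154.3 CPM, it was 0.47 (edgeR adjusted p = 0.200). It passed with the depth class as a term (0.55, edgeR adjusted p = 0.00898), as did 2414 of 19157 genes. In the cervical spinal cord *Per1* held 95.0, 49.8, 25.0, 43.0 and 63.4 CPM in WT and 92.1, 129.4, 56.4, 74.97 and 94.6 CPM in SCA7 mice, a difference of 0.51 (SE 0.30, edgeR adjusted p = 0.427). Values of *Per1* overlapped between the genotypes in both tissues. *Per2* differed by 0.15 (SE 0.33) in the medulla and by 0.34 (SE 0.43) in the cervical spinal cord, and *Per3* by 0.26 (SE 0.34) and -0.06 (SE 0.29). The medulla differences of *Per2* and *Per3* were 0.23 and 0.028 without SCA7 replicate 2. *Per3* overlaps *Uts2*, the urotensin 2 gene on the opposite strand, by 4714 bases, and *Per2* overlaps the non-coding *Gm35591*. *Uts2* did not pass in either tissue, at 0.33 (SE 0.28) and -0.85 (SE 0.50), or 0.32 in the medulla without SCA7 replicate 2.

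*Ciart*, which encodes a repressor of CLOCK and BMAL1, differed by -0.31 (SE 0.25, edgeR adjusted p = 0.560) in the medulla and by -0.47 (SE 0.48, edgeR adjusted p = 0.702) in the cervical spinal cord. Its counts were 0 to 4 in each shallow library of 9 weeks, so that its values rest on the deep libraries, which held 15.4 and 14.1 CPM in WT and 11.2 and 12.4 CPM in SCA7 medulla, and 22.8 and 18.7 CPM in WT and 14.7 and 14.7 CPM in SCA7 cervical spinal cord. *Ciart* overlaps the non-coding *C920021L13Rik* on the opposite strand, which rose in the SCA7 medulla by 1.07 (SE 0.28, edgeR adjusted p = 0.0347) and lost the call without SCA7 replicate 2 (1.04, edgeR adjusted p = 0.208). *Clock*, the activator of the positive arm, differed by -0.17 (SE 0.26, edgeR adjusted p = 0.813) and -0.11 (SE 0.29, edgeR adjusted p = 0.927). The medulla differences of *Ciart* and *Clock* were -0.34 and -0.13 without SCA7 replicate 2. The level of *Clock* moved with the depth class in the 9-week medulla, where the 4 deep libraries lay between 73.5 and 93.8 CPM and the 6 shallow libraries between 33.6 and 65.3 CPM. In the cervical spinal cord the classes overlapped, with the 4 deep libraries between 69.8 and 86.4 CPM and the 6 shallow libraries between 23.0 and 91.8 CPM. *Clock* overlaps the non-coding *Gm7467*, at 0.61 (SE 0.29, edgeR adjusted p = 0.269) in the medulla, or 0.72 without that library, and 0.16 (SE 0.39, edgeR adjusted p = 0.909) in the cervical spinal cord.

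**Figure D3:**
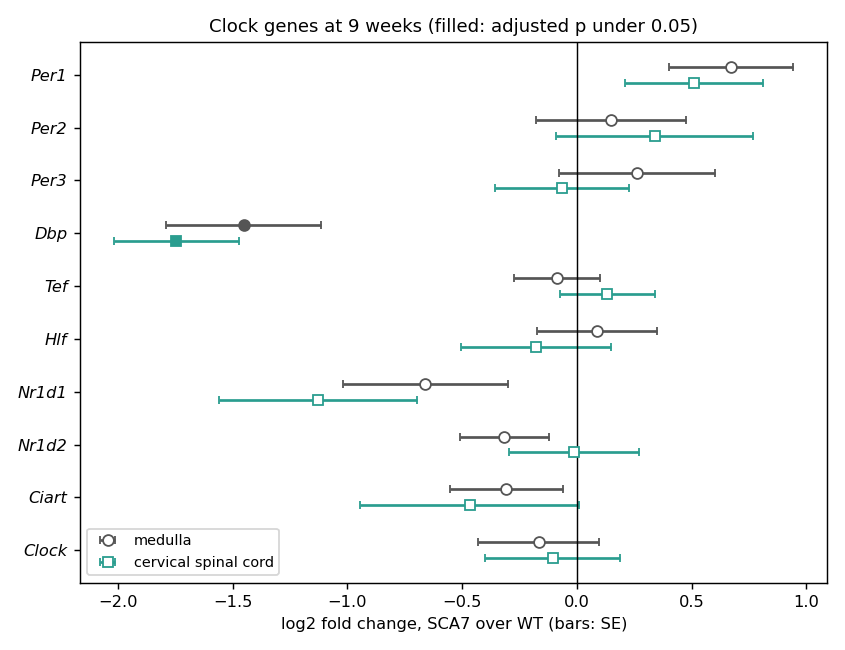
Log2 fold change of the 10 members in SCA7 over WT mice at 9 weeks, in the medulla (circles) and cervical spinal cord (squares), with bars for the SE and filled symbols where the edgeR adjusted p was under 0.05. *Dbp* is the only filled gene, at -1.45 and -1.75, and *Per1* and *Nr1d1* lie on opposite sides of 0 in both tissues.

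Among the 19 other genes of the clock, 0 fell and 1 rose in the SCA7 medulla, and none passed in the cervical spinal cord by edgeR. Their median change was -0.08 in the medulla, beside 0.08 over all genes tested, and 0.31 in the cervical spinal cord, beside -0.02. The medians of the 10 members were -0.13 and -0.09. *Cry1*, a cryptochrome that represses CLOCK and BMAL1, was the gene that rose: it held 16.8, 16.4, 8.2, 8.2 and 15.3 CPM in WT and 33.5, 20.1, 29.1, 31.5 and 37.1 CPM in SCA7 medulla. The groups did not overlap, and the change was 1.15 (SE 0.28, edgeR adjusted p = 0.0214). Without SCA7 replicate 2 it was 1.13 (edgeR adjusted p = 0.000131), and the call was lost with DESeq2 (DESeq2 adjusted p = 0.18), with the replicate block (edgeR adjusted p = 0.338), with the bias-adjusted deviance (edgeR adjusted p = 0.285) and without any of the 4 deep libraries (edgeR adjusted p = 0.0835 to 0.168). In the cervical spinal cord *Cry1* held 13.9, 0, 8.3, 8.6 and 15.2 CPM in WT and 23.0, 21.6, 6.3, 28.6 and 39.3 CPM in SCA7 mice, a difference of 1.14 (SE 0.42, edgeR adjusted p = 0.158), and it passed with the depth class as a term (1.25, edgeR adjusted p = 0.0167). The shallow libraries held 0 to 4 *Cry1* counts. *Cry2* was at 0.53 and 0.76 in the medulla and cervical spinal cord, *Arntl*, the partner of *Clock*, at 0.25 and 0.48 and *Npas2*, which can stand in for *Clock*, at -0.11 and 0.54, and none of these passed. *Csnk1e*, a kinase of the period proteins, did not overlap between the genotypes in the medulla, where it lay higher in SCA7 mice, and did not pass (0.74, edgeR adjusted p = 0.153). Without SCA7 replicate 2, at 241.6 CPM, its difference was 0.36 (edgeR adjusted p = 0.301). *Cry1* alone of the 19 passed in the medulla without that library, and *Cry2*, *Arntl* and *Npas2* were at 0.52, 0.22 and -0.15.

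Markers of glia moved with these changes. In the 9-week medulla 7 of 12 astrocyte and 6 of 12 oligodendrocyte markers fell, and in the cervical spinal cord 7 of 12 and 10 of 12 fell. None of either list rose. The summed astrocyte markers lay between 6217 and 8394 CPM in WT and between 2556 and 4221 CPM in SCA7 medulla, and between 6978 and 13279 CPM and between 3087 and 4439 CPM in the cervical spinal cord. The groups did not overlap in either tissue. The summed oligodendrocyte markers overlapped, at 18556 to 44711 CPM in WT and 9866 to 37425 CPM in SCA7 medulla and 32785 to 105207 CPM in WT and 15636 to 36484 CPM in SCA7 cervical spinal cord. The neuron markers, taken as defining for both tissues, passed in neither direction, and all 10 were above 0 in each 9-week group. Of the other lists, 3 of 8 microglia markers and 3 of 5 red blood cell markers fell in the medulla and 1 of 8 and 5 of 5 in the cervical spinal cord, all 6 meningeal fibroblast markers fell in the cervical spinal cord and none in the medulla, 1 of 5 motor neuron markers rose in the medulla, and no endothelial or choroid plexus marker passed in either tissue. Without SCA7 replicate 2 of the medulla 9 of 12 astrocyte, 9 of 12 oligodendrocyte, 5 of 8 microglia, 5 of 5 red blood cell and 1 of 6 endothelial markers fell there, 1 of 5 motor neuron markers rose, and no neuron, meningeal fibroblast or choroid plexus marker passed. In bulk tissue, fewer cells of a type and less RNA per cell cannot be told apart, and the part of these markers in the *Dbp* result was not tested.

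Genes induced by glucocorticoids, hormones that also induce *Per1*, and by cold were set beside the members. Of 11 glucocorticoid-induced genes 4 rose and 0 fell in the medulla, and 0 rose and 1 fell in the cervical spinal cord. The 4 were *Fkbp5* at 1.74, *Sult1a1* at 1.93, *Zbtb16* at 1.52 and *Pdk4* at 1.15, and the gene that fell was the metallothionein *Mt1* at -1.57. Both cold-inducible RNA-binding protein genes rose in both tissues: *Rbm3* by 1.68 (SE 0.28, edgeR adjusted p = 0.00258) and *Cirbp* by 1.21 (SE 0.24, edgeR adjusted p = 0.0083) in the medulla, and by 1.57 and 1.06 in the cervical spinal cord. Without SCA7 replicate 2, 5 of 11 glucocorticoid-induced genes rose and 1 fell in the medulla, with *Fkbp5* at 1.54, *Sult1a1* at 1.86, *Zbtb16* at 1.37, *Pdk4* at 1.14 and *Nfkbia* at 0.93 higher and *Mt1* at -0.67, and *Rbm3* and *Cirbp* rose by 1.61 and 1.01. The summed level of the cold-inducible pair lay between 89.8 and 164.5 CPM in WT and between 283.8 and 422.8 CPM in SCA7 medulla. The part of either list in the *Dbp* result was not tested.

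Whether the SCA7 change differed between the tissues was tested over the 20 libraries of the 10 mice with the mouse as a block. No member passed, against 2.78% of all genes tested, and the smallest edgeR adjusted p among them was 0.877, with 0 members at an unadjusted p under 0.05. For *Dbp* the cervical minus medulla difference of the change was -0.17 (SE 0.24), and for *Nr1d1* -0.16 (SE 0.31). Between the tissues themselves only *Hlf* passed, against 4.25% of all genes: it was lower in the cervical spinal cord than in the medulla by -0.73 on the log2 scale (SE 0.16, edgeR adjusted p = 0.00904). The deep libraries of *Hlf* lay between 93.1 and 129.4 CPM in the medulla and between 46.2 and 73.8 CPM in the cervical spinal cord, with no overlap, and the shallow libraries overlapped. Its call was lost without the mouse block (-0.63, edgeR adjusted p = 0.115), in WT mice alone (-0.47, edgeR adjusted p = 0.642) and without SCA7 mouse 4 or 5 (-0.58 and -0.59). Without SCA7 mouse 2, whose medulla library stood apart, *Hlf* was at -0.78 (edgeR adjusted p = 0.00286) and no member passed for the difference between tissues of the SCA7 change. The other 9 members differed by -0.17 to 0.34 between the tissues.

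At 5 weeks no member passed in the medulla, against 0.846% of all genes, or in the cervical spinal cord, against 0.728%. *Dbp* held 54.3 and 58.8 CPM in WT and 26.4 and 17.0 CPM in SCA7 medulla, from 3 and 2 counts in the shallow SCA7 libraries, and the difference was -1.26 (SE 0.44, edgeR adjusted p = 0.358). The median of all genes was also at -0.54 in this comparison of deep with shallow libraries (-0.43 with the size factors of DESeq2). The cervical libraries of *Dbp* held 37.9 and 53.0 CPM in WT and 17.3 and 29.5 CPM in SCA7 mice, with a difference of -0.85 (SE 0.70, edgeR adjusted p = 0.941), from 2 to 5 counts in the shallow libraries. *Per1* differed by -1.06 and *Per3* by -1.07 in the medulla, *Nr1d1* by 0.83 in the medulla and by -1.23 in the cervical spinal cord, and *Tef* by 0.00 and -0.45, with no pass. *Ciart* held 0 counts in both 5-week SCA7 medulla libraries, so that no fold is given. The change at 9 weeks did not differ from that at 5 weeks for any member in the medulla or the cervical spinal cord by edgeR, with 0% of all genes tested passing in either comparison and 1169 and 1036 genes at an unadjusted p under 0.05. Those differences were -0.23 (SE 0.66) and -0.84 (SE 0.59) for *Dbp*.

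At P8 the medulla of SCA7 mice passed for 0 of 10 members and 0% of 20564 genes, with 559 genes at an unadjusted p under 0.05. *Dbp* held 20.6 and 19.7 CPM in WT and 19.1 and 29.1 CPM in SCA7 medulla, a difference of 0.00 (SE 0.21), and the last of these rested on 3 counts. The other members lay between -0.23 and 0.35. The cervical spinal cord at P8 had a single WT library, and its values are given with no test: *Dbp* held 18.0 CPM in WT and 21.0 and 16.1 CPM in SCA7 mice, *Nr1d1* 27.4 CPM in WT and 41.9 and 40.3 CPM in SCA7 mice, and *Tef* 92.3 CPM in WT and 119.7 and 72.6 CPM in SCA7 mice. The SCA7 libraries held 2 to 7 *Dbp* counts.

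Most members rose with age in the WT medulla. From P8 to 5 weeks 7 of 10 rose, against 18.5% of all genes called in either direction, and from P8 to 9 weeks 8 of 10 rose, against 21.8%. No member fell. The median change of the members was 0.98 and 1.34, beside -0.13 and -0.15 over all genes tested. *Dbp* held 20.6 and 19.7 CPM at P8, 54.3 and 58.8 CPM at 5 weeks and 50.5 to 84.4 CPM at 9 weeks, and the rise over P8 was 1.36 (SE 0.25, edgeR adjusted p = 0.00111) and 1.82 (SE 0.25, edgeR adjusted p = 5.61e-05). No P8 library reached any later one. *Hlf* rose by 1.70 (SE 0.30) and 1.62 (SE 0.28), from 34.3 and 33.8 CPM, and *Tef* by 0.99 (SE 0.25) and 1.26 (SE 0.23), from 102.9 and 93.8 CPM. *Nr1d1* rose by 1.38 and 1.88 and *Nr1d2* by 0.96 and 1.37. *Per1* rose by 1.68 and 1.43 and *Per2* by 0.94 and 0.96. *Ciart* was at 0.87 at 5 weeks (edgeR adjusted p = 0.166) and rose by 1.31 at 9 weeks (edgeR adjusted p = 0.0295). *Per3* was at 0.09 and 0.25 and *Clock* at 0.67 and 0.57, and neither passed. The P8 and 5-week WT libraries were all deep. Among deep libraries alone *Clock* also rose, by 0.76 and 0.83 (edgeR adjusted p = 0.00155 and 0.00101), as did *Per3* at 9 weeks, by 0.58 (edgeR adjusted p = 0.00219). In those fits 7772 and 7905 of 21090 genes passed at 5 and 9 weeks. With a P8 library left out, 2 or 3 members passed at 5 weeks in place of 7, and without 5-week replicate 1, 4 passed. Of all genes, 2642 of 20194 passed without P8 replicate 1 and 2234 of 20968 without P8 replicate 2. Without 5-week replicate 1 it was 1949 of 21081, beside 3907 of 21133 with all libraries.

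**Figure D4:**
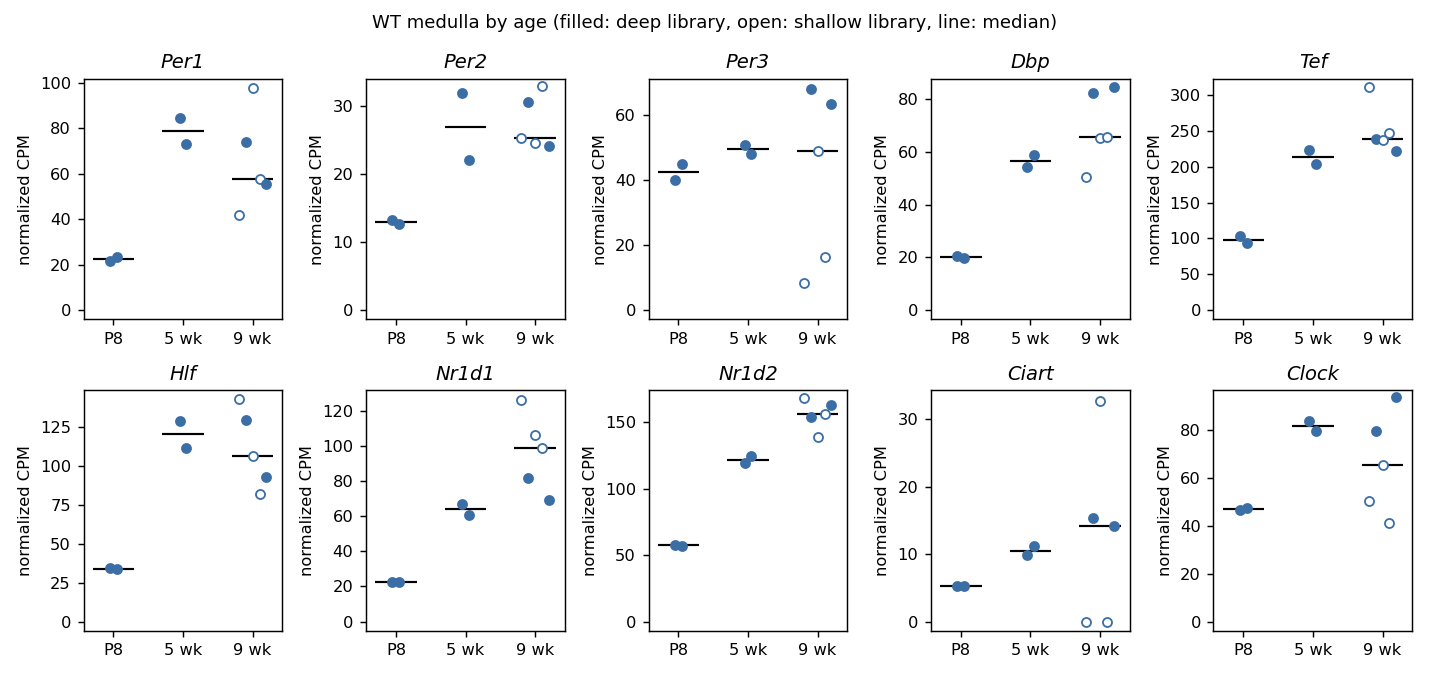
Normalized CPM of the 10 members in each WT medulla library at P8, 5 weeks and 9 weeks, with filled points for deep and open points for shallow libraries and a line at the median. *Per1*, *Per2*, *Dbp*, *Tef*, *Hlf*, *Nr1d1* and *Nr1d2* lie higher in every later library than in both P8 libraries, and *Per3*, *Ciart* and *Clock* do not.

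Of the 19 other clock genes 5 rose and 1 fell over P8 in the WT medulla at each of the later ages. *Bhlhe40* and *Bhlhe41*, repressors that compete for E-boxes, both rose, the former by 1.03 at 5 weeks and 1.12 at 9 weeks and the latter by 1.44 at 9 weeks (edgeR adjusted p = 0.0237 at 5 weeks). *Usp2*, a deubiquitinase with a rhythmic transcript, rose by 1.07 and 1.03, and *Btrc*, a subunit of a ubiquitin ligase of period proteins, by 0.83 and 0.83. *Rora*, an activator of RORE genes, rose at 5 weeks (1.45). *Timeless*, which acts in DNA replication in mammals, fell by 1.48 and 1.58 on the log2 scale. The positive arm and the cryptochromes gave no pass, with *Arntl* at 0.16 and -0.33 and *Cry1* at -0.24 and -0.27.

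Levels were compared between members per kilobase of exon (GENCODE vM21 lengths). In the 2 deep 9-week WT medulla libraries *Tef* lay at 28.1 and 30.3, *Nr1d2* between 28.4 and 30.1, *Dbp* at 27.5 and 28.2 and *Nr1d1* at 22.4 and 26.5 CPM per kilobase, so that *Tef*, *Nr1d2* and *Dbp* did not separate beyond the spread of 2 libraries. *Hlf* followed with 13.9 and 19.4 and *Per1* with 9.86 and 13.1 CPM per kilobase. *Per3* (6.62 to 7.10), *Ciart* (6.25 to 6.81), *Clock* (5.79 to 6.83) and *Per2* (4.10 to 5.22) were lowest there, and the first 3 of these overlapped. The order was another in other groups. In the 2 deep 9-week SCA7 medulla libraries *Dbp* lay at 9.64 and 10.2 and *Nr1d1* at 12.3 and 13.5, below *Per1* at 14.6 and 17.6 CPM per kilobase. In the 2 deep 9-week WT cervical libraries *Hlf*, at 8.73 and 11.04, lay below *Per1*, at 11.3 and 16.9 CPM per kilobase.

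Because both tissues came from the same mice at 9 weeks, each member was related between the medulla and cervical spinal cord of a mouse, and *Clock* and *Arntl* were related to the members of the opposite phase within a tissue. Values were log2 normalized CPM with the genotype means removed, over 10 mice, and p-values came from a 2-sided exact permutation of mice within a genotype. Of the 10 relations between tissues none passed after adjustment over the 10, and r ranged from -0.32 to 0.69. *Dbp* gave r = -0.28 and rho = -0.48 (exact permutation p = 0.164 and 0.0535, adjusted p = 0.816 for r), and r = -0.60 without the 2 mice farthest from the median (exact permutation p = 0.0722, adjusted p = 0.181). The largest r was that of *Clock*, at 0.69 with rho = 0.78 (exact permutation p = 0.0388 and 0.0229, adjusted p = 0.388 for r). It was 0.77 without the 2 farthest mice and 0.62 with the depth class removed as well (exact permutation p = 0.458). Both tissues were of the same depth class in 8 of 10 mice.

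**Figure D5:**
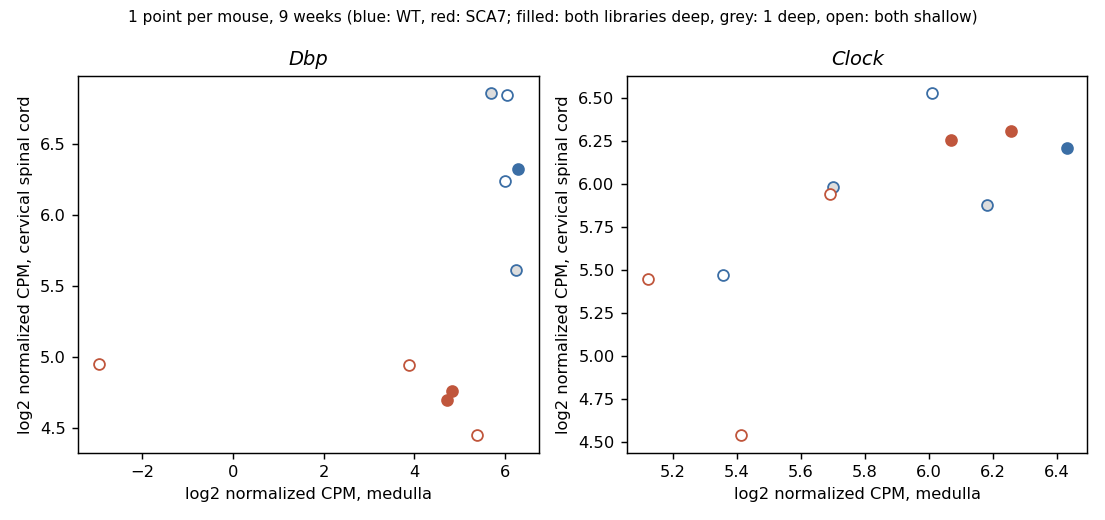
Log2 normalized CPM of *Dbp* (left) and *Clock* (right) in the medulla (horizontal) and cervical spinal cord (vertical) of each 9-week mouse, WT in blue and SCA7 in red, filled where both libraries were deep, grey where 1 was and open where neither was. For *Dbp* the 2 genotypes separate in both tissues, and within a genotype the points give r = -0.28 after the genotype means are removed, and the SCA7 mouse far to the left had 0 medulla counts, since the prior count shrinks with library size.

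Within a tissue, 36 relations of *Clock* or *Arntl* to the other 9 members were computed, and none passed after adjustment over the 36. The signs were mixed, with 20 of 36 negative, a median r of -0.07 and a range from -0.86 to 0.97. *Clock* and *Dbp* gave r = 0.25 (rho = 0.27) in the medulla and r = -0.21 (rho = -0.21) in the cervical spinal cord (exact permutation p = 0.666 and 0.482 for r). *Arntl* and *Dbp* gave r = 0.65 (rho = 0.29) and r = 0.02 (rho = 0.09), with exact permutation p = 0.0517 and 0.965 for r, and the former fell to r = 0.18 without the 2 mice farthest from the median. *Clock* and *Nr1d1* in the medulla gave r = -0.86 (rho = -0.85, exact permutation p = 0.00361 for r, adjusted p = 0.104), and r = -0.54 with the depth class removed as well (exact permutation p = 0.236). *Arntl* and *Per2* in the cervical spinal cord gave r = 0.97 (rho = 0.81, exact permutation p = 0.00576, adjusted p = 0.104), and r = 0.53 without the 2 farthest mice (exact permutation p = 0.218), so that it rests on those mice. *Arntl* had 0 to 2 counts in each shallow 9-week library. The deep libraries alone, 4 in each tissue, are too few for a relation.

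Among the genes most like *Dbp* of 2162 compared over the 20 libraries of 9 weeks, by Pearson r of log2 normalized CPM with tissue and genotype means removed, were *Pim3* at 0.83, *Tmcc2* at 0.79, *Zranb2* at 0.77 and *Rrbp1* at 0.76. This is a description across libraries that share depth classes and mice. *Dbp* had 0 counts in SCA7 replicate 1 of the medulla, which lies far below its group on this scale and weighs heavily in r. The ranking was not repeated without that library. None of these 4 genes passed between the genotypes in either tissue, with *Tmcc2* at -0.29 and -0.53 and *Pim3* at 0.30 and -0.25.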

How the data were processed

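RNA was extracted from the medulla and cervical spinal cord and sequenced by the authors, who aligned the reads to the mouse genome (mm10 per the labels) and deposited raw counts of uniquely mapped reads per gene symbol, 1 table per library. The aligner, counter and strand setting are not given in the sources used here. Groups came from the labels. The members and gene lists were chosen with earlier results of these data known.

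The counts were tested with edgeR 4.0.16 (R 4.3.3, limma 3.58.1; quasi-likelihood, settings of earlier releases, TMM), with at least 10 counts in 1 library and Benjamini-Hochberg adjustment over all genes tested. DESeq2 1.42.0, other normalization, filters, blocks, depth classes and leaving out each library were alternatives. Named genes were the members, the other clock genes, genes overlapping a member, the 5 most like *Dbp* and called genes of 2 response lists. *Csnk1e* and *COX1* were named after their values were seen. Values of some genes that this rule names are not reported here. Positions, overlaps and promoter windows came from RefSeq (GRCm38.p6), exon lengths from GENCODE vM21. Log2 values for relations had a prior count of 2, scaled to library size. Counts were simulated with the same dispersion for every gene and the same composition in every library, apart from the changed genes. Those were drawn from genes above a minimum mean count, and changes smaller than 4-fold were not simulated. On such counts with 200 genes changed 4-fold, the test recovered 99.5% for the 9-week medulla and 98.5% for the 9-week cervical spinal cord. It recovered 65.5% for the difference between tissues and 99% for the WT medulla at 5 weeks over P8. False calls, of genes left unchanged, numbered 28 beside 199 recovered, 33 beside 197, 4 beside 131 and 31 beside 198, in that order. Except for the difference between tissues, false calls thus made up a larger share than the adjusted threshold allows, and the test was too liberal there. Libraries are from separate mice within a tissue, and p-values measure the spread between them.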

Additional observations from a re-analysis of the deposited data

Results flagged for a closer look

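In 4 of 40 groups of 5 libraries, 1 library lay far from the other 4 by Dixon's test, which flags about 1 in 20 groups by chance. All 4 libraries were shallow. *Dbp* was 21.6 CPM, from 3 counts, in SCA7 replicate 2 of the 9-week cervical spinal cord, where the others lay between 28.6 and 31.3. *Nr1d2* was 86.2 CPM, from 12 counts, in that same library, where the others lay between 137.7 and 157.1. *Tef* was 311.4 CPM, from 37 counts, in WT replicate 1 of the 9-week medulla, where the others lay between 221.4 and 246.7. *Nr1d1* was 275.3 CPM, from 32 counts, in WT replicate 4 of the 9-week cervical spinal cord, where the others lay between 76.2 and 116.8.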

How the results depend on the processing

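At 9 weeks 1 member passed in each tissue. In the medulla the count was 0 with at least 10 counts in every library (3 members tested), 0 with the bias-adjusted deviance, 2 in deep libraries alone, 0 in shallow libraries alone (6 members tested), 3 with the depth class as a term and 0 to 2 with 1 library left out. In the cervical spinal cord it was 2 with the replicate block, 0 with at least 10 counts in every library (1 member tested), 0 in deep libraries alone, 0 in shallow libraries alone (7 members tested) and 2 with the depth class as a term. *Dbp*, the member that passed in each tissue, did not have 10 counts in every library of either tissue, or in any shallow medulla library. It was thus not tested in those fits, and their counts of 0 say nothing of its call. For the cervical spinal cord over the medulla, 1 member passed, with 0 without the mouse block, 0 in WT mice alone and 0 to 1 with 1 mouse left out. Of the 7 members that passed from P8 to 5 weeks, 2 to 6 passed with 1 library left out. Of all genes, 1949 to 2642 passed in those fits, beside 3907 with all libraries. The counts of relations that passed were 0 under each alternative run, and shallow libraries alone held too few mice for those between tissues. With the depth class removed as well, and in shallow libraries alone, few arrangements of mice were left, so that a pass was hardly possible. The smallest adjusted p (exact permutation) with the depth class removed was 0.417 between tissues and 0.5 within a tissue. The counts of 0 in those settings cannot tell whether a relation holds. No member had 10 counts in every library in the comparisons of ages. Of all genes tested at 9 weeks, 1335 passed in the medulla. It was 2981 in deep libraries alone and 2414 with the depth class as a term. In the cervical spinal cord 974 genes passed, with 1117 under the replicate block and 893 with the depth class as a term.

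Of the log2 fold changes under alternatives 531 held their direction and side of the threshold, 39 lost the threshold, 11 gained it and 26 reversed. The cause of the reversals was not tested. Deep libraries alone gave -0.042 for *Per3* and -0.13 for *Hlf* in the medulla and 0.071 for *Per3*, 0.35 for *Nr1d2* and 0.20 for *Clock* in the cervical spinal cord. The depth class as a term gave -0.026 for medulla *Hlf* and 0.072 for cervical *Nr1d2*, which was at 0.0013 with DESeq2 and 0.038 with the replicate block. For *Dbp* at P8 the difference was -0.022 with the size factors of DESeq2, -0.0035 with no filter and -0.016 with all ages in 1 fit. With 1 library left out, *Tef* in the medulla ranged from -0.16 to 0.027 and *Hlf* from -0.11 to 0.20, and in the cervical spinal cord *Per3* ranged from -0.21 to 0.083, *Hlf* from -0.39 to 0.056, *Nr1d2* from -0.19 to 0.15 and *Clock* from -0.25 to 0.040. At P8 *Dbp* ranged from -0.037 to 0.57, and *Per3* in the WT medulla from P8 to 5 weeks from -0.0081 to 0.19.

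Of the relations, *Dbp* between tissues was at r = 0.41 with no centring on genotype. *Clock* and *Dbp* in the medulla were at r = -0.11 with centring on depth class and -0.12 in shallow libraries alone, and in the cervical spinal cord at 0.18 with no centring on genotype. *Arntl* and *Dbp* in the cervical spinal cord were at r = -0.35 with no centring on genotype, -0.13 with centring on depth class, -0.14 in shallow libraries alone and -0.15 without the 2 mice farthest from the median.

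The labels do not tie replicate numbers of the genotypes to a shared litter or day. The correlation of deviations between WT and SCA7 libraries was positive within a depth class and negative between classes, whatever the number, and ranged from -0.83 to 0.94 for the same number, so that it cannot tell whether the numbers pair the mice. Counts of gene lists without medulla SCA7 replicate 2, given with the results, were an alternative chosen after seeing the data. The 20 shallow libraries limit the values of genes of few counts.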
